A study of Bos taurus with 16 samples.

Results

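The serpins are described here as 32 genes of the bovine liver count table: every row whose symbol starts with SERPIN and that had a count over 4 in at least 1 of 12 libraries. The table holds 36 such rows among 28786 gene rows, and 19824 rows of all kinds passed the same filter and were tested. By the letter of the symbol, which stands for the clade of the family, 12 of the 32 belonged to clade A, 9 to clade B, 3 to clade E, 2 each to clades F and I, and 1 each to clades C, D, G and H. Of the 4 rows left out, *SERPINA4*, *SERPINA12* and *SERPINB7* had no count in the 12 libraries and *SERPINB12* had at most 3 in a library. The members just inside the filter were *SERPINB11*, *SERPINA6* and *SERPINB4*, with at most 7, 9 and 10 counts in a library.

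Precision-cut liver slices (PCLS) are thin discs of living tissue kept in culture, and here they came from early postpartum Jersey cows in their first lactation. For 18 h the slices received 100 µM of WY-14643 (PPARα agonist), 50 µM of GW-501516 (PPARδ agonist) or 100 µM of rosiglitazone (PPARγ agonist), and control slices, labelled Untreated, received none of them. All groups shared William's Medium E and, by the methods of the study, the same 0.8% of the vehicle DMSO. Each of cows 581, 576 and 567 gave 1 library per group, so that n = 3 in each group and the 4 libraries of a cow come from the biopsy of that animal. The 4 libraries of cow 574, which the study removed for degraded RNA, were not used in the tests. Slices were run in duplicate and, by the study's own account, the duplicates were pooled after treatment.

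Serpins share a fold with an exposed loop that a target protease cuts. In the inhibitory members the cut loop snaps into the body of the serpin and drags the protease along, which traps both in a complex that cannot come apart. The liver is the main source of the serpins of blood plasma, among them the inhibitors of clotting, of plasmin, of complement and of neutrophil elastase. Other members stay inside cells or have lost the inhibitory function and carry hormones or fold collagen.

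The 12 libraries held 3081981 to 10227330 counts in genes, of which 11.9 to 63.8% fell on *RN18S1*, the 18S ribosomal RNA. CPM, the counts scaled to a common library size, were computed with TMM-normalized library sizes. The libraries were made from the 3' ends of transcripts, so CPM were not divided by gene length. Of 14 hepatocyte markers, 12 had counts in every library, *TAT* and *PCK1* being at 0 in 1 library each. The library of cow 576 with the PPARα agonist stood apart. Its 14 hepatocyte markers summed to 2145 CPM, against 4589 to 12269 CPM in the other 8 agonist libraries. Its neutrophil markers summed to 2154 CPM, against 18.6 to 99.1 CPM in all other libraries. The PPARδ library of cow 576 had the highest share on *RN18S1*, 63.8%. It also had the fewest genes detected, 9993, against 12933 to 17461 in the others. The 3 comparisons share the same 3 control libraries, which held 3081981 to 4026365 gene counts. The PPARα libraries of cows 581 and 567 and the PPARδ library of cow 581 carry a mark "rd" of unstated meaning in their names. These 3 marked libraries held the most gene counts, 10227330, 9797785 and 8215399, with 14.1, 11.9 and 16.4% on *RN18S1*. All other libraries held at most 6143418 gene counts, with at least 33.15% on *RN18S1*.

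As a family, serpins took 0.222 to 0.620% of the gene counts outside *RN18S1* with the PPARα agonist, 0.325 to 0.547% with the PPARδ agonist and 0.337 to 0.482% with the PPARγ agonist, against 0.170 to 0.360% in control slices. Summed over the 32 members, expression was 4428, 1378 and 3634 CPM with the PPARα agonist in cows 581, 576 and 567, the order kept for all values per cow. It was 3480, 3475 and 2055 CPM with the PPARδ agonist, 3103, 3169 and 1971 CPM with the PPARγ agonist, and 1878, 988 and 2227 CPM in control slices. The sum was thus above the own control in all 3 cows with the PPARα agonist, and in cows 581 and 576 only with the other agonists. In cow 567 the control slices had the higher sum in both of those comparisons.

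A few plasma serpins made up most of that sum. *SERPINA1* (α1-antitrypsin, the inhibitor of neutrophil elastase) held 20.4% of the family CPM, and *SERPING1* (C1 inhibitor, which blocks the C1 complex of complement) held 13.9%. The 8 highest members, which also included *SERPINA3-1*, *SERPINF2*, *SERPINA3*, *SERPINC1*, *SERPIND1* and *SERPINB6*, together held 79.6%. At the other end, 12 members averaged fewer than 50 counts per library and together held 0.676%. Counts in every library were found for 17 of the 32 members.

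**Figure D1:**
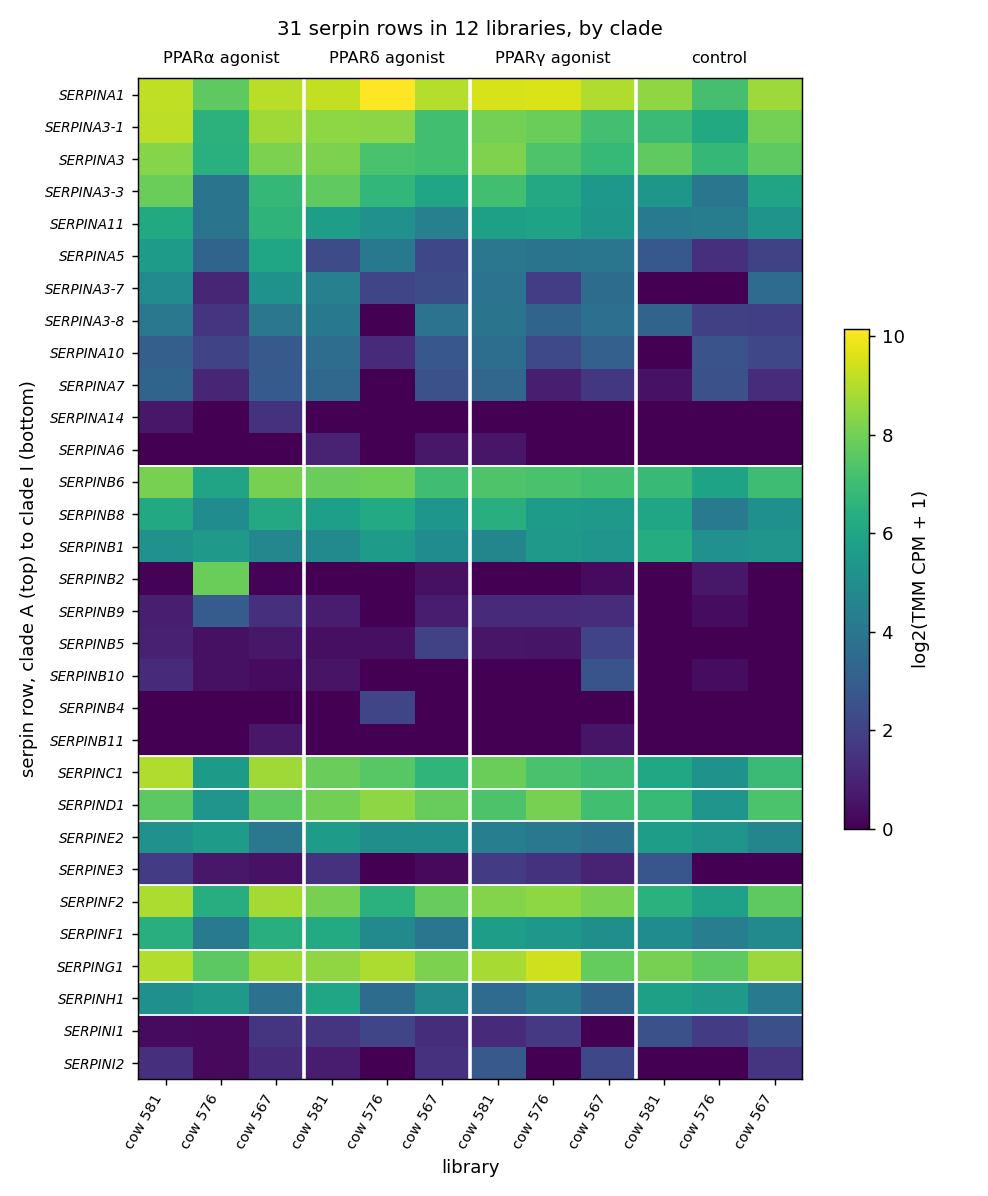
Level of each of 31 serpin rows (rows of the plot, by clade and then by mean level) in each of the 12 libraries (columns, by treatment and cow), as log2 of TMM CPM plus 1 on a colour scale. The plasma serpins at the top of clade A and in clades C, D, F and G are bright in nearly all columns, and *SERPINB2* is bright in a single library, at 235 CPM.

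With the PPARα agonist, edgeR called 3 of the 32 members higher and none lower at an adjusted p under 0.2, where 0.535% of all tested rows were called (0.424% higher and 0.111% lower). They were *SERPINC1*, *SERPINA5* and *SERPINB2*. At an unadjusted p under 0.05 there were 10 members (7.88% of all rows), all higher. With the PPARδ agonist 0 members were called (0.308% of all rows), although 5 had an unadjusted p under 0.05 (7.82% of all rows), all of them higher. With the PPARγ agonist 0 members were called (0.631% of all rows), and 7 had an unadjusted p under 0.05 (6.79% of all rows), 5 higher (3.86%) and 2 lower (2.93%). The 5 include *SERPINB5*, which had no count in a control library and passed the filter through agonist libraries alone. DESeq2 called 2 members higher with the PPARα agonist, *SERPINA5* and *SERPINC1* (0.994% of all rows), and 0 with both others (1.77% and 0.893% for the PPARδ and PPARγ agonist), and 0 lower. Leaving out 1 library moved the calls of members and also those of all rows. With the PPARα agonist 106 rows were called with all libraries, 0 without the control library of cow 581, where none of the 3 member calls remained, and 28 without that of cow 576, where only *SERPINB2* did. Without the PPARα library of cow 576 edgeR called 9 members among 1002 rows, and without the PPARδ libraries of cows 581 and 576 it called 5 and 6 members among 288 and 758 rows. For the PPARδ agonist it called 3, 4 and 3 members without the PPARα libraries of cows 581, 576 and 567, among 213, 313 and 240 rows against 61 with all libraries, and 0 or 1 otherwise. For the PPARγ agonist, with 125 rows called in all libraries, it called 4 members without the PPARδ library of cow 576 (618 rows) and 3 without the PPARα library of that cow (324 rows). It called 2 without the PPARα or PPARδ library of cow 581 or the PPARα or control library of cow 567 (155 to 271 rows), and 0 otherwise.

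Since the same cows gave all groups, the fit with the cow as a block sets each agonist library against its own animal, and it called more members. It called 7 higher with the PPARα agonist (1.85% of all rows were called higher and 0.837% lower, 2.68% in all), namely *SERPINC1*, *SERPINA5*, *SERPINF2*, *SERPINA3-1*, *SERPINA3-3*, *SERPINA3-7* and *SERPINB2*. It called 5 higher with the PPARδ agonist (1.39% higher, 0.636% lower, 2.03% in all), namely *SERPINA1*, *SERPIND1*, *SERPINA3-3*, *SERPINC1* and *SERPINB6*, and 5 higher with the PPARγ agonist (1.58% higher, 1.28% lower, 2.86% in all), namely *SERPINF2*, *SERPINA1*, *SERPINC1*, *SERPIND1* and *SERPINA5*. No member was called lower. *SERPINC1* is the only member called with all 3 agonists in that fit. Leaving out 1 library moved these counts by over 1.5 times in several cases: with the PPARα agonist to 3 without the control of cow 581 or of cow 576, to 2 and 1 without the PPARα libraries of cows 581 and 567 and to 11 without that of cow 576. The rows called in these fits were 112, 751, 126, 76 and 1057 in that order, against 532 with all libraries. With the PPARδ agonist the count moved to 2 and 0 without the controls of cows 581 and 576 and to 3 without the PPARδ library of cow 576, with 118, 323 and 403 rows called against 402. With the PPARγ agonist it moved to 3 and 1 without the controls of cows 581 and 576 and to 0 without the PPARγ library of cow 576, with 260, 471 and 225 rows called against 567. It moved to 10 without the PPARδ library of cow 576 (1254 rows), and to 3 without any single PPARα library (421 to 558 rows).

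**Figure D2:**
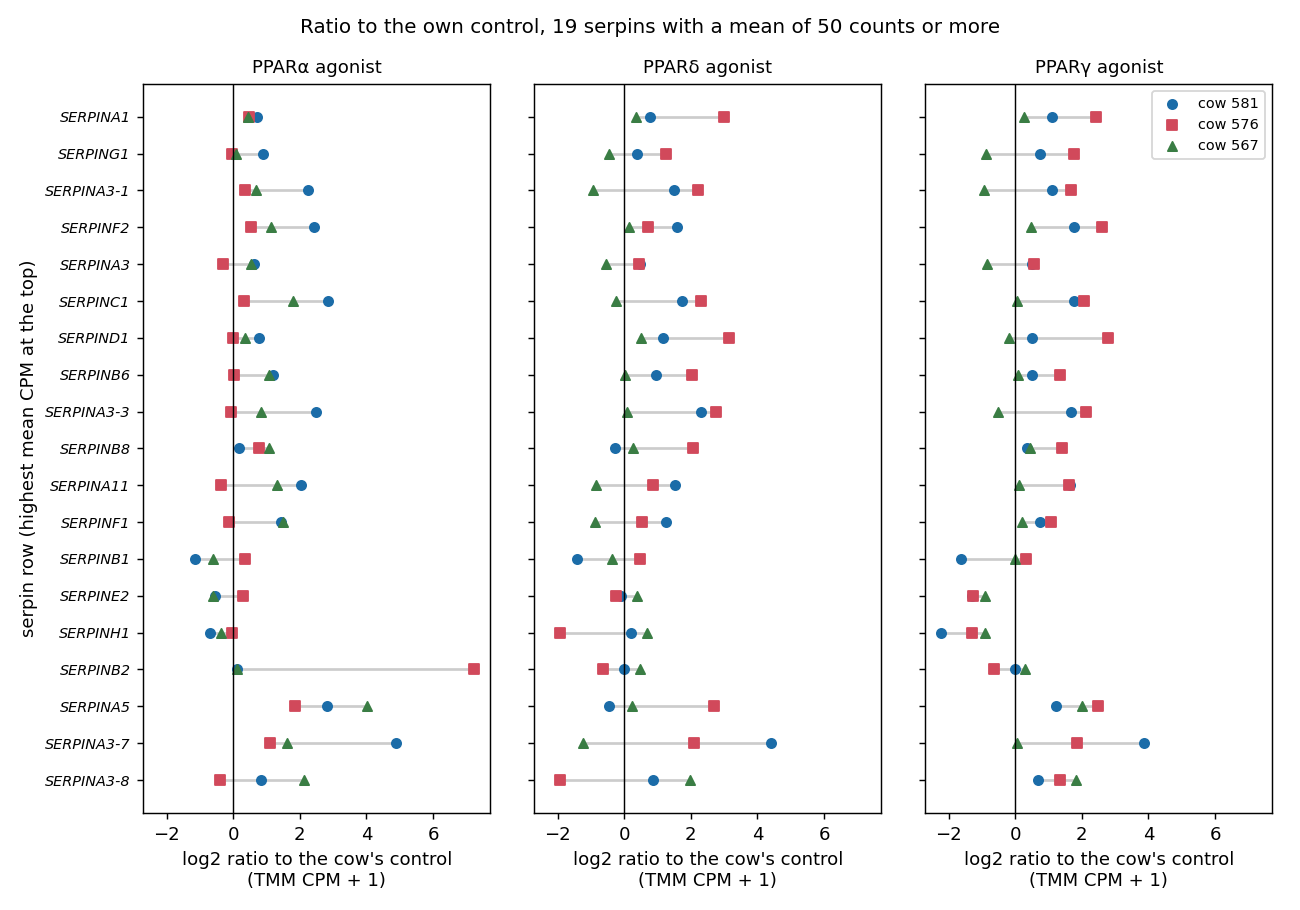
Log2 ratio of each agonist library to the control of the same cow (x axis, TMM CPM plus 1; 0 means equal) for 19 serpins that averaged 50 counts or more (y axis, highest mean level at the top), with 1 panel per agonist and 1 symbol per cow. Most symbols lie to the right of 0. Those of cow 567 (triangles) mostly lie nearest to or left of 0 with the PPARδ and PPARγ agonists. Exceptions include *SERPINA3-8*, at 1.98 and 1.83 in that cow. *SERPINE2* and *SERPINH1* lie left of 0 in all 3 cows with the PPARγ agonist.

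The log2 fold change had a median of 1.11 over the 32 members with the PPARα agonist, beside 0.12 over all 19824 rows. It was 0.73 with the PPARδ agonist, beside 0 over all rows, and 0.86 with the PPARγ agonist, beside 0.08. No count in any control library was found for 5 members, which thus passed the filter through agonist libraries alone. With these 5 set to lower bounds, taking 3 counts over the 3 control libraries as the floor, the medians were 0.98, 0.73 and 0.67 in the same order of agonists. All 3 agonist libraries lay above all 3 controls for 3 members under the PPARα agonist (9.33% of all rows), 5 under the PPARδ agonist (4.59%) and 10 under the PPARγ agonist (8.7%). They lay below all 3 controls for 1, 0 and 2 members (4.73%, 4.77% and 6.01% of all rows). The 3 members above all controls under the PPARα agonist were *SERPINA5*, *SERPINB9* and *SERPINB5*. The last 2 had 1 and 0 counts in the control libraries together. *SERPINB5* is also among the members above all controls under the other agonists, and *SERPINB9* under the PPARγ agonist. In the counts cow by cow that follow, *SERPINB5* is above the own control in all 3 cows under each agonist. As it passed the filter through agonist libraries alone, its place in these counts is no support for a rise. Cow by cow, 12 members were above the own control in all 3 cows under the PPARα agonist (18.4%), 6 under the PPARδ agonist (9.33%) and 12 under the PPARγ agonist (15.8%), and 2, 0 and 3 were below it in all 3 cows (10.4%, 10.3% and 11.6%).

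Among the inhibitors of clotting, antithrombin (*SERPINC1*), which blocks thrombin and factor Xa when bound to heparin, rose with the PPARα agonist. Its level was 492, 45.0 and 413 CPM with the PPARα agonist, 230, 180 and 99.5 CPM with the PPARδ agonist, 233, 152 and 125 CPM with the PPARγ agonist, and 67.6, 35.7 and 119 CPM in control slices. Cows 581 and 567 had the 2 highest values with the PPARα agonist, whereas cow 576 was at 45.0 CPM with it and overlapped the controls. Only the PPARγ group lay wholly above the control group. The edgeR log2 fold change was 2.10 ± 0.51 (SE) with the PPARα agonist (adjusted p = 0.0998, edgeR) and 1.20 ± 0.50 with both other agonists (adjusted p = 0.582 and 0.632, edgeR, for the PPARδ and PPARγ agonist). With the cow as a block edgeR gave adjusted p-values of 1.84e-05, 0.0220 and 0.0180 for the PPARα, PPARδ and PPARγ agonist. The blocked call was lost without the PPARα library of cow 567 for the PPARα agonist, and, for each of the others, without the control library of cow 581 or 576 or its own library of cow 576. Without the 3 marked libraries, which leaves cow 576 alone with the PPARα agonist, the log2 fold change of *SERPINC1* with that agonist was -0.67.

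*SERPINA5*, the protein C inhibitor, also rose with the PPARα agonist and was scarce in control slices. It had 47.6, 8.77 and 62.3 CPM with the PPARα agonist, 4.13, 16.2 and 3.59 CPM with the PPARδ agonist, 15.4, 14.0 and 14.8 CPM with the PPARγ agonist, and 5.97, 1.67 and 2.94 CPM in control slices. All libraries with the PPARα or the PPARγ agonist lay above all controls, and the PPARγ group was tight at 14.7 ± 0.685 CPM (SD, n = 3) beside 3.53 ± 2.21 CPM in controls. The log2 fold change was 3.51 ± 0.82 (SE) with the PPARα agonist (adjusted p = 0.0769, edgeR) and 2.08 ± 0.78 with the PPARγ agonist (adjusted p = 0.528, or 0.184 with the cow as a block, edgeR). Across libraries left out in turn, the value with the PPARα agonist stayed between 3.02 and 4.03, with adjusted p-values of 0.00123 to 0.414 (edgeR). The call was lost without any single control library and without the PPARα library of cow 567. The values of 47.6 and 62.3 CPM came from marked libraries. Leaving out the 3 marked libraries leaves only the library at 8.77 CPM with the PPARα agonist. The log2 fold change with that agonist was then 1.38, and 1.45 with the cow as a block. Of the calls with the block, that with the PPARα agonist was lost without the PPARα library of cow 581 or 567, and that with the PPARγ agonist in 8 of 12 fits that left out 1 library (adjusted p = 0.206 to 0.625, edgeR).

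Heparin cofactor II (*SERPIND1*), another heparin-dependent inhibitor of thrombin, had its highest levels with the PPARδ agonist. It had 194, 38.1 and 198 CPM with the PPARα agonist, 256, 346 and 222 CPM with the PPARδ agonist, 159, 268 and 136 CPM with the PPARγ agonist, and 113, 38.2 and 155 CPM in control slices. The PPARδ group lay above all controls, while in cow 576 the PPARα library matched its control, at 38.1 against 38.2 CPM. The highest value, 346 CPM, came from the PPARδ library of cow 576, the library with the fewest genes detected. With the PPARδ agonist the log2 fold change was 1.43 ± 0.46 (SE; adjusted p = 0.381, edgeR). Blocked by cow it was 1.57 ± 0.35 under the PPARδ agonist and 1.05 ± 0.35 under the PPARγ agonist, with adjusted p-values of 0.00267 and 0.130 (edgeR), so that *SERPIND1* passed with both. Without the control library of cow 576 both of these calls were lost, and that with the PPARγ agonist was lost in 6 of 12 such fits.

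*SERPINA10*, the protein Z-dependent inhibitor of factor Xa, was rare, at 1.32 to 11.6 CPM in agonist libraries and 0 to 5.02 CPM in controls, and passed no test.

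Among the inhibitors of fibrinolysis, α2-antiplasmin (*SERPINF2*), which inactivates plasmin, was raised with the PPARα and PPARγ agonists in the fit with the cow as a block. Its level was 477, 78.6 and 439 CPM with the PPARα agonist, 268, 89.1 and 218 CPM with the PPARδ agonist, 305, 339 and 276 CPM with the PPARγ agonist, and 88.7, 54.4 and 198 CPM in control slices. Each agonist library was above the control of its own cow, in 9 of 9 pairs, and the PPARγ group did not overlap the controls. The 9 pairs share 3 control libraries, and the share of all rows with 9 of 9 such pairs was not computed. Fold changes on the log2 scale were 1.54 ± 0.47 (SE) with the PPARα agonist and 1.43 ± 0.47 with the PPARγ agonist, with adjusted p-values of 0.277 and 0.381 (edgeR). With the cow as a block the adjusted p-values were 0.00335 and 0.000115 (edgeR). These calls were lost without the control of cow 581 or the PPARα library of cow 581 or 567 for the PPARα agonist, and without the PPARγ library of cow 576 for the PPARγ agonist. Without the 3 marked libraries, which leaves cow 576 alone with the PPARα agonist, the log2 fold change with that agonist was -0.49. It was 0.10 with the cow as a block. *SERPINF2* also differed between cows (adjusted p = 0.00382, edgeR).

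**Figure D3:**
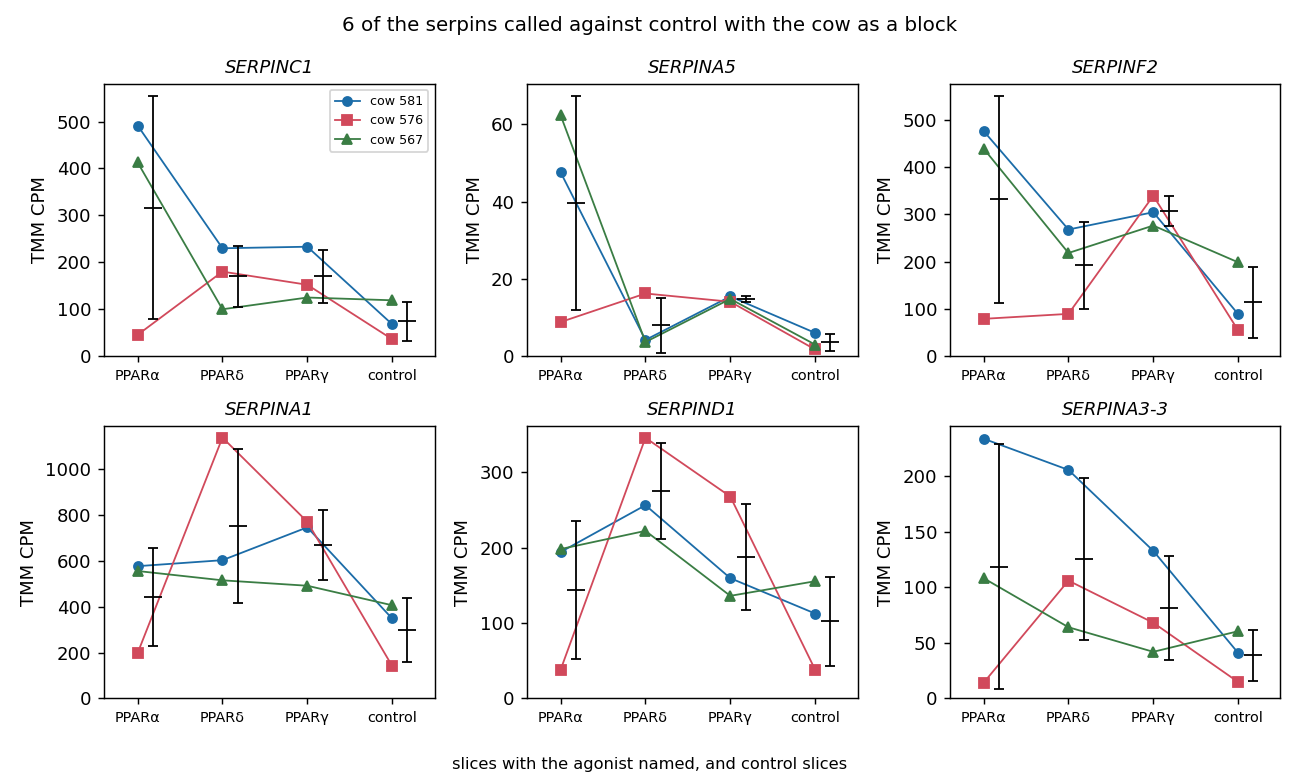
TMM CPM (y axis, from 0) of 6 serpins called in the fit with the cow as a block, for slices with the PPARα, PPARδ or PPARγ agonist and for control slices (x axis). Coloured symbols joined by lines are the 3 cows, and the black bars beside them give the mean and the SD (n = 3). Cow 576 (squares) is the lowest of the 3 cows with the PPARα agonist in all 6 panels, at 45.0 CPM for *SERPINC1*.

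*SERPINE2*, protease nexin 1, which blocks thrombin and plasminogen activators at cell surfaces, had its lowest levels with the PPARγ agonist. It had 33.8, 47.9 and 15.6 CPM with the PPARα agonist, 46.4, 32.3 and 32.5 CPM with the PPARδ agonist, 19.5, 15.6 and 12.6 CPM with the PPARγ agonist, and 49.7, 38.8 and 24.5 CPM in control slices. The PPARγ group lay wholly below the controls, as it did for 6.01% of all rows. Its log2 fold change with the PPARγ agonist was -1.24 ± 0.53 (SE), with an unadjusted p of 0.0255 and an adjusted p of 0.665 (edgeR), or 0.463 with the cow as a block, so that it passed neither fit. *SERPINE3* had 0 to 5.57 CPM in every library.

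The proteases that these inhibitors meet showed no calls of their own in the fit without the block. Of 12 genes of coagulation, edgeR called 0 with each agonist, and with the cow as a block it called prothrombin (*F2*) and *F11* higher with the PPARα agonist, by 1.55 and 1.35 on the log2 scale, and with the PPARγ agonist, by 1.48 and 2.26. *THBD* and *PROCR*, the endothelial receptors of the protein C pathway, fell in that fit with the PPARγ agonist, at log2 fold changes of -1.60 and -1.21. Of 8 genes of fibrinolysis, 0 were called without the block, and with it plasminogen (*PLG*), *PLAU* and *PLAUR* were called higher with the PPARα agonist, *VTN* with the PPARδ agonist and *PLG* and *VTN* with the PPARγ agonist. The median log2 fold change of the coagulation genes was 0.60, 0.09 and 0.50 with the PPARα, PPARδ and PPARγ agonist, and that of the fibrinolysis genes was 1.19, -0.22 and 0.62, beside 0.12, 0 and 0.08 over all rows.

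*SERPINA1*, the most abundant member, was higher in 9 of 9 pairs of agonist and own control. Its level was 577, 198 and 556 CPM with the PPARα agonist, 603, 1138 and 515 CPM with the PPARδ agonist, 747, 771 and 492 CPM with the PPARγ agonist, and 349, 142 and 407 CPM in control slices. The PPARδ and PPARγ groups lay wholly above the controls, and the PPARα group overlapped them only through cow 576. The highest value, 1138 CPM, came from the PPARδ library of cow 576, the library with the fewest genes detected. Under the PPARδ agonist the log2 fold change was 1.33 ± 0.40 (SE) and under the PPARγ agonist 1.16 ± 0.40, with adjusted p-values of 0.287 and 0.406 (edgeR), and 0.00173 and 0.00719 with the cow as a block. Both calls were lost without the control library of cow 576, and each was lost without the library of cow 576 with that agonist.

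The *SERPINA3* group encodes relatives of human α1-antichymotrypsin, which inhibits cathepsin G and chymase. Cattle carry several copies of this gene, and 5 of them are members here. In the RefSeq annotation of assembly ARS-UCD2.0 the rows *SERPINA3-8*, *SERPINA3*, *SERPINA3-7* and *SERPINA3-3* are direct neighbours. Reads may be split between copies this alike, so the level of each single copy is uncertain, as are those of *SERPINA5*, *SERPIND1*, *SERPINF1*, *SERPINA6*, *SERPINB8* and *SERPINE3*, which overlap another annotated entry there and were counted with an unstated strand setting. *SERPINA3-1* had 570, 90.8 and 419 CPM with the PPARα agonist, 342, 335 and 136 CPM with the PPARδ agonist, 261, 231 and 137 CPM with the PPARγ agonist, and 121, 70.9 and 261 CPM in control slices. It was above the own control in all 3 cows with the PPARα agonist and in cows 581 and 576 with the others, and was called with the PPARα agonist in the fit with the block, at 1.15 ± 0.33 (SE) on the log2 scale (adjusted p = 0.0430, edgeR). That call was lost without the control of cow 581 or 576 or the PPARα library of cow 581 or 567, with a lowest value of 0.74.

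*SERPINA3-3* had 234, 14.1 and 108 CPM with the PPARα agonist, 205, 106 and 64.0 CPM with the PPARδ agonist, 133, 68.1 and 41.9 CPM with the PPARγ agonist, and 41.0, 14.8 and 60.4 CPM in control slices. The PPARδ group lay above all controls, by as little as 64.0 against 60.4 CPM. In the fit with the block edgeR gave log2 fold changes of 1.27 ± 0.39 and 1.71 ± 0.40 (SE) for the PPARα and PPARδ agonist, with adjusted p-values of 0.0873 and 0.00593. The first call was lost without the control of cow 581 (0.83) or 576, the PPARα library of cow 581 (0.76) or 567, or the PPARγ library of cow 581, and the second without the control of cow 581 or 576. *SERPINA3-7* had 28.9, 1.14 and 35.0 CPM with the PPARα agonist, 20.3, 3.30 and 3.97 CPM with the PPARδ agonist, 13.5, 2.58 and 11.2 CPM with the PPARγ agonist, and 0, 0 and 10.8 CPM in control slices. It was called with the PPARα agonist in the same fit (adjusted p = 0.179, edgeR), but not without any 1 of 6 libraries, the control of cow 581 or 576 and the PPARα and PPARγ libraries of cows 581 and 567 (adjusted p = 0.259 to 1, edgeR). *SERPINA3* itself differed little between groups, with 318, 87.0 and 284 CPM with the PPARα agonist, 284, 150 and 134 CPM with the PPARδ agonist, 291, 161 and 110 CPM with the PPARγ agonist, and 206, 109 and 197 CPM in control slices. *SERPINA3-8* ranged from 0 to 16.2 CPM in agonist libraries and from 2.69 to 8.35 CPM in controls. All of *SERPINA3-1*, *SERPINA3-3* and *SERPINA3-7* had log2 fold changes below 0 with the PPARα agonist (-0.69, -1.41 and -1.61) without the 3 marked libraries. With the cow as a block the values without these libraries were -0.67, -0.999 and 1.34, so that the sign of *SERPINA3-7* depended on the block.

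*SERPINA11*, which lies beside *SERPINA1* in that assembly, had 71.6, 13.9 and 95.9 CPM with the PPARα agonist, 50.4, 34.3 and 20.6 CPM with the PPARδ agonist, 54.3, 58.2 and 40.7 CPM with the PPARγ agonist, and 16.7, 18.4 and 37.7 CPM in control slices. Only the PPARγ group did not overlap the controls, and *SERPINA11* was not called in either fit.

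Other acute phase proteins of the liver, most of which the hepatocyte secretes as it does these serpins, were called in part. Of 20 genes, edgeR called 3, 1 and 2 higher with the PPARα, PPARδ and PPARγ agonist, and none lower. They were *LBP*, which binds bacterial lipopolysaccharide, with all 3 agonists, *AHSG* with the PPARα and PPARγ agonists, and serum amyloid *SAA2* with the PPARα agonist. This list shares *ALB*, *TTR*, *TF*, *FGA*, *FGB* and *HP* with the hepatocyte markers. The log2 fold changes of *LBP* were 2.42, 1.99 and 2.62 with the PPARα, PPARδ and PPARγ agonist (adjusted p = 0.0139, 0.0694 and 0.00392, edgeR). The median of the 20 was 0.96, 0.35 and 0.69 with the 3 agonists in that order, each above that of all rows. The list holds proteins that rise in an acute phase response and others that fall in it, among them *ALB* and *AHSG*. Its median and calls are therefore no measure of such a response.

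C1 inhibitor (*SERPING1*) passed no test. It had 502, 194 and 417 CPM with the PPARα agonist, 352, 474 and 284 CPM with the PPARδ agonist, 449, 684 and 214 CPM with the PPARγ agonist, and 267, 198 and 394 CPM in control slices. The groups overlapped throughout, and with the PPARδ and PPARγ agonists cow 567 was below its own control. Of its targets and relatives *C1R*, *C1S*, *MASP1* and *MASP2*, 0 of 4 were called without the block, and *C1S* was called higher with the PPARα agonist with it, by 1.08 on the log2 scale (adjusted p = 0.0917, edgeR).

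Clade B serpins mostly lack a signal peptide and act inside cells. *SERPINB6*, an inhibitor of cathepsin G, was the most abundant of the 9, with 268, 59.7 and 270 CPM with the PPARα agonist, 225, 240 and 130 CPM with the PPARδ agonist, 164, 150 and 136 CPM with the PPARγ agonist, and 115, 58.3 and 128 CPM in control slices. It was above the own control in 9 of 9 pairs, which share 3 control libraries, by as little as 59.7 against 58.3 CPM in cow 576 with the PPARα agonist. It was called higher with the PPARδ agonist in the fit with the block only, at 1.09 ± 0.35 (SE) on the log2 scale (adjusted p = 0.125, edgeR). That call was lost without any 1 of 6 libraries, namely the 3 controls, the PPARα library of cow 581 or 567, and the PPARδ library of cow 576, without which the value was 0.53 (adjusted p = 0.87, edgeR). *SERPINB8*, an inhibitor of furin, had 29.6 to 81.1 CPM in agonist libraries and 16.7 to 63.3 CPM in controls, and *SERPINB1*, an inhibitor of neutrophil elastase, had 24.1 to 46.9 CPM in agonist libraries and 33.8 to 76.8 CPM in controls. Neither passed a test.

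Plasminogen activator inhibitor 2 (*SERPINB2*), which blocks urokinase and is made by monocytes and macrophages, owed its call to 1 library. It had 1232 counts, or 235 CPM, in cow 576 with the PPARα agonist, and 0 to 2 counts in each of the other 11 libraries. The edgeR fit gave a log2 fold change of 8.50 ± 1.72 (SE) with the PPARα agonist (adjusted p = 0.0255), DESeq2 gave no adjusted p, and without that library the row held too few counts to be tested. The same library had the highest sums of 3 marker lists: 2154 CPM for 9 neutrophil markers, 1681 CPM for 12 Kupffer cell and macrophage markers and 2775 CPM for 9 stellate cell and fibroblast markers, where the other 11 libraries had 18.6 to 99.1, 140 to 1099 and 130 to 1224 CPM. Of the neutrophil markers, *CXCR2*, *CATHL1*, *CATHL2* and *LCN2* were at 0 in 5 to 10 of the 12 libraries, while *S100A8*, *S100A9*, *S100A12* and *MMP9* were called higher with the PPARα agonist. The part of these cells in the value of *SERPINB2* was not tested.

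The inhibitor of granzyme B, *SERPINB9*, was also highest in that library, at 6.68 CPM. Its other agonist libraries had 0 to 1.60 CPM and the controls 0 to 0.279 CPM, where 1 count was found in all 3 controls together. *SERPINB5* (maspin) had no count in a control library and had 11, 2 and 7 counts with the PPARα agonist, 3, 1 and 16 counts with the PPARδ agonist and 2, 3 and 13 counts with the PPARγ agonist. Pooled over the group it was at least 2.26-fold, 3.98-fold and 4.33-fold higher than the floor of 3 counts over the control group. With no control count, *SERPINB5* passed the filter through agonist libraries alone, so these bounds are a description and no support for a rise. *SERPINB10* had 0 to 5.24 CPM, *SERPINB4* had 10 counts in a single PPARδ library, and *SERPINB11* had 9 counts in 2 libraries. Each of these low rows was uncalled in both fits. Among the granule and lysosomal proteases that clade B members can bind, *ELANE* and *PRTN3* had no count in any library and *GZMB* had counts in 1. *CTSV* was called higher with the PPARα and PPARγ agonists (log2 fold changes 3.26 and 2.38, adjusted p = 0.0112 and 0.0569, edgeR), and the cathepsins *CTSS* and *CTSB* fell with the PPARγ agonist (-2.26 and -1.16, adjusted p = 0.0116 and 0.142, edgeR).

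**Figure D4:**
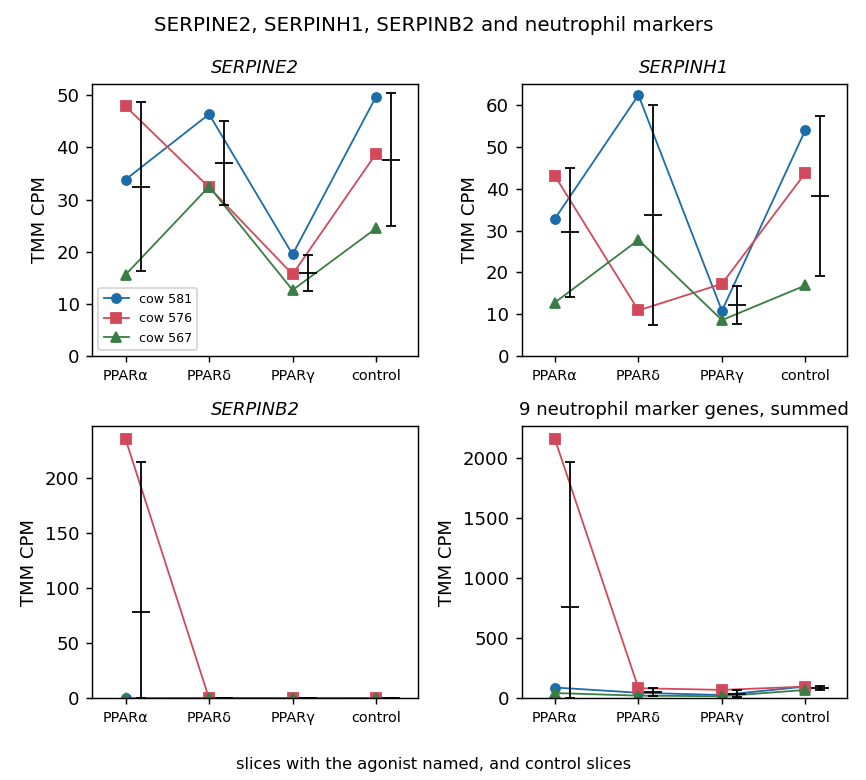
TMM CPM (y axis, from 0) of *SERPINE2*, *SERPINH1* and *SERPINB2*, and the summed TMM CPM of 9 neutrophil marker genes, for slices with the PPARα, PPARδ or PPARγ agonist and for control slices (x axis). Coloured symbols joined by lines are the 3 cows, and black bars give the mean and the SD (n = 3; the lower bar stops at 0). The PPARγ values of *SERPINE2* (12.6 to 19.5 CPM) lie below all controls, and the library of cow 576 with the PPARα agonist carries both the *SERPINB2* value of 235 CPM and the neutrophil marker sum of 2154 CPM.

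*SERPINH1* (HSP47) does not inhibit proteases but is the chaperone that procollagen needs in the endoplasmic reticulum. It had 32.8, 43.1 and 12.8 CPM with the PPARα agonist, 62.4, 10.9 and 27.8 CPM with the PPARδ agonist, 10.8, 17.3 and 8.57 CPM with the PPARγ agonist, and 54.1, 43.8 and 16.9 CPM in control slices. With the PPARγ agonist it was below the own control in 3 of 3 cows, although the groups met at 17.3 against 16.9 CPM. On the log2 scale its fold change was -1.64 ± 0.62 (SE), with an unadjusted p of 0.0113 and an adjusted p of 0.528 (edgeR), or 0.228 with the cow as a block. Without cow 576 in any group *SERPINH1* was called, at -1.82 (adjusted p = 0.0314, edgeR), and also without the PPARδ library of that cow, at -1.66 (adjusted p = 0.0921, edgeR).

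Collagen genes moved in part with the PPARγ agonist. Of 15 collagen chains and collagen-folding enzymes, *COL4A2* was called lower (log2 fold change -1.77, adjusted p = 0.181, edgeR), and the blocked fit called *COL4A2*, *COL4A1* and *COL3A1* lower. The median of the 15 was 0.28, -0.21 and -0.64 under the PPARα, PPARδ and PPARγ agonist. The markers of stellate cells and fibroblasts, the collagen-making cells, summed to 130 to 222 CPM with the PPARγ agonist, against 339 to 1224 CPM in control slices. *COL1A1*, *COL1A2* and *COL3A1* are in both lists, so these are not separate observations. In bulk tissue fewer cells of a type and less RNA per cell cannot be told apart. *SERPINH1* is also a target of heat shock factor. Of 11 other such targets edgeR without the block called *HSPE1* higher with the PPARα agonist and *HSPA1A* and *DNAJB1* higher with the PPARδ agonist. It called 0 with the PPARγ agonist. With the cow as a block it called 2 higher and 1 lower with the PPARα agonist. That fit called 5 higher with the PPARδ agonist and 3 higher with the PPARγ agonist. The part of heat shock factor in the values of *SERPINH1* was not tested.

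The remaining members without inhibitory function were the pigment epithelium-derived factor *SERPINF1*, the thyroxine carrier *SERPINA7* and the cortisol carrier *SERPINA6*. *SERPINF1*, the neighbour of *SERPINF2* but for 1 gene in assembly ARS-UCD2.0, had 82.0, 17.5 and 81.2 CPM with the PPARα agonist, 72.4, 28.1 and 14.7 CPM with the PPARδ agonist, 50.5, 41.5 and 32.6 CPM with the PPARγ agonist, and 29.8, 19.3 and 27.9 CPM in control slices. The PPARγ group lay above the controls, and in cow 567 *SERPINF1* was at 14.7 CPM with the PPARδ agonist, below its control. *SERPINA7* had 0 to 9.41 CPM in agonist libraries and 0.398 to 4.74 CPM in controls. *SERPINA6* was found in 3 libraries with 9, 3 and 2 counts. The uterine serpin *SERPINA14* was found only in 2 PPARα libraries, with 7 and 23 counts in cows 581 and 567. Both of these PPARα libraries carry the mark "rd". Neuroserpin (*SERPINI1*), an inhibitor of tissue plasminogen activator, had 0.191 to 1.92 CPM with the PPARα agonist, 1.51 to 3.30 CPM with the PPARδ agonist and 0 to 2.26 CPM with the PPARγ agonist, against 2.51 to 4.77 CPM in control slices. The PPARα and PPARγ groups lay below the controls, and no test was passed. *SERPINI2* had 0 to 6.22 CPM.

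Hepatocyte markers moved with the serpin sum. The 14 markers summed to 10210, 2145 and 12269 CPM with the PPARα agonist, 6347, 6638 and 4589 CPM with the PPARδ agonist, 7109, 7620 and 4983 CPM with the PPARγ agonist, and 3683, 2620 and 6218 CPM in control slices. The libraries with the lowest serpin sums, control and PPARα of cow 576, also had the lowest marker sums. Cow 567 had a lower sum than its own control with the PPARδ and PPARγ agonists in both measures. None of the 14 markers was called without the block, and with it edgeR called 3 higher and 1 lower with the PPARα agonist, 3 higher with the PPARδ agonist and 4 higher with the PPARγ agonist. Of 12 Kupffer cell and macrophage markers, edgeR called 1, 2 and 1 lower with the PPARα, PPARδ and PPARγ agonist. With the cow as a block it called 1, 6 and 6 of these markers lower. The sum of the 12 was 564, 1681 and 341 CPM with the PPARα agonist and 140 to 379 CPM with the PPARδ and PPARγ agonists, against 1099, 822 and 557 CPM in control slices. It was thus above its own control only in cow 576 with the PPARα agonist. Endothelial markers (10 genes) had median log2 fold changes of -0.73, -0.72 and -1.40 with the PPARα, PPARδ and PPARγ agonist. Lymphocyte markers (11 genes) had medians of -0.58, -0.96 and -1.77. Without the block 0 of these were called except 1 lymphocyte marker lower with the PPARγ agonist. With the cow as a block 2, 1 and 3 endothelial markers were called lower in that order of agonists. That fit also called 2 lymphocyte markers lower with the PPARγ agonist. The part of the cell mix in the serpin values was not tested.

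**Figure D5:**
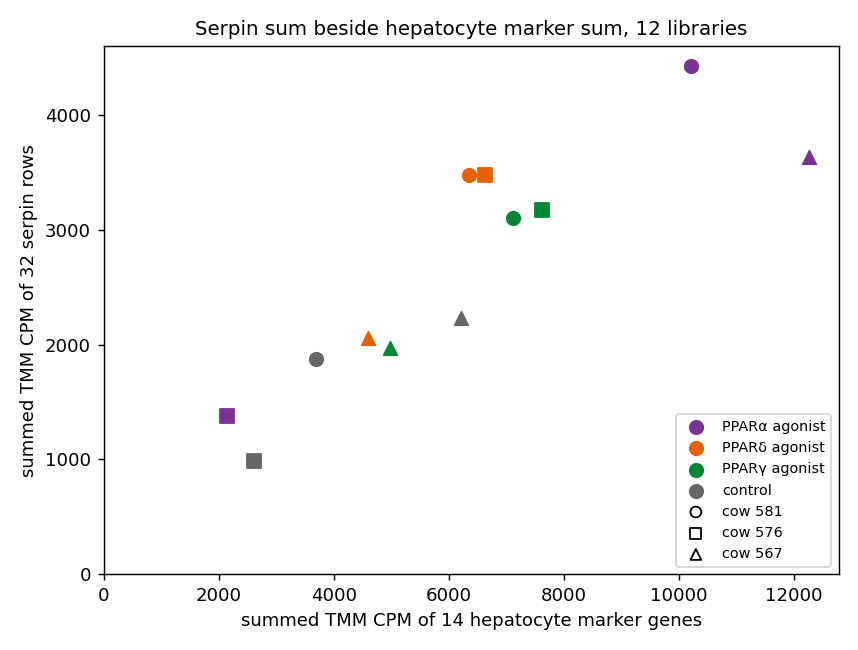
Summed TMM CPM of the 32 serpin rows (y axis) beside that of 14 hepatocyte marker genes (x axis) in each of the 12 libraries, with colours for the treatments and symbols for the cows. Both axes start at 0. The serpin sum runs from 988 CPM in the control of cow 576 to 4428 CPM in the PPARα library of cow 581, and libraries with more hepatocyte marker CPM mostly have more serpin CPM.

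Set against the hepatocyte markers of the same library, some plasma serpins stayed above their own controls and others did not. Per 1000 CPM of hepatocyte markers, *SERPINC1* averaged 34.3 ± 13.6, 28.3 ± 7.33 and 25.9 ± 6.47 CPM under the PPARα, PPARδ and PPARγ agonist, against 17.03 ± 2.96 CPM in control slices (SD, n = 3 each). All 9 agonist libraries lay above all 3 controls on this scale, by as little as 19.92 against 19.09. The share of all rows with such a gap was not computed on this scale. *SERPINA5* had 4.66, 4.09 and 5.08 per 1000 CPM of markers with the PPARα agonist and 1.62, 0.639 and 0.472 in control slices, again without overlap. *SERPINA1* was above its own control on this scale in 3 of 3 cows with the PPARδ and the PPARγ agonist but in 1 of 3 with the PPARα agonist. *SERPINF2* was above it in 3 of 3 cows with the PPARα and the PPARγ agonist. *SERPING1* averaged 57.9 ± 29.2, 63.0 ± 8.04 and 65.3 ± 23.5 (SD, n = 3 each) with the PPARα, PPARδ and PPARγ agonist and 70.5 ± 6.40 in control slices, and was below its own control in 3 of 3 cows with the PPARδ agonist. These ratios are a description, and the share of hepatocytes in the slices was not measured.

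Between cows, edgeR called 7 of the 32 members in the fit with group and cow (4.67% of all rows). Among them were *SERPINF2*, *SERPINC1*, *SERPINA3*, *SERPINA3-3*, *SERPINA3-7* and *SERPINB2*. That of *SERPINB2* rests on the PPARα library of cow 576, with 1232 counts, where the other libraries of that cow had at most 2. For *SERPINA3* and *SERPINA3-3* cow 581 had the highest mean over its 4 libraries. Without the PPARα library of cow 576 the count was 2, and without the PPARδ library of that cow it was 13. The numbers of all rows called in these fits are not given, so no result about serpins is read from these counts.

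Compared directly, the agonists differed in few members. *SERPINB2* was lower with the PPARδ and with the PPARγ agonist than with the PPARα agonist, through the 1 library described above, and was the single member called in each of these comparisons (0.156% and 0.338% of all rows). With the cow as a block *SERPIND1* was also higher with the PPARδ than with the PPARα agonist, by 1.09 on the log2 scale (adjusted p = 0.170, edgeR). These fits called 2 members each (1.16% and 1.27% of all rows). Between the PPARγ and the PPARδ agonist 0 members were called in either fit (0.0757% of all rows without the block and 0.57% with it), and 3 had an unadjusted p under 0.05 (3.97%). GW-501516 was given at 50 µM and the others at 100 µM, so these differences are of compound and dose together.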

How the data were processed

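RNA of liver slices was sequenced from the 3' end of transcripts (QuantSeq FWD). Per the methods and processing notes of the authors, reads were trimmed with Trimmomatic 0.39 and aligned with STAR 2.7.1 to ARS-UCD1.2. The deposited table holds raw counts per gene in 16 libraries; its column names are those of STAR's gene count output, whereas the methods name StringTie 2.0, and no source used here gives the strand setting. It also holds 4 tallies of reads outside genes (29.1 to 54.1% had no feature), which were left out of library sizes, and 26 rows whose symbols had turned into dates.

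Counts of 12 libraries (cows 581, 576 and 567) were tested with edgeR 4.0.16 (R 4.3.3, limma 3.58.1): TMM, quasi-likelihood F test with group only, all rows with a count over 4 in at least 1 library, Benjamini-Hochberg adjustment over 19824 rows, called at an adjusted p under 0.2. The cow as a block and DESeq2 1.42.0 were alternatives, as were other filters, normalizations and libraries left out. Replicates are cows. The block rests on the shared animal: deviations from group means correlated at -0.03 to 0.28 within a cow and -0.27 to 0.15 between cows. Every serpin past the filter is accounted for. Values per library are given for the 8 highest members, those with an unadjusted p under 0.05 or called with the block, and *SERPINB2* and *SERPINH1*. The values of 1 member, which is in all counts and sums, are not reported here. From other lists, called genes and the 2 with the smallest p were to be named. The members and lists were chosen with earlier results of these data known. The scripts were tested on simulated data. RefSeq names and neighbours come from assembly ARS-UCD2.0.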

Additional observations from a re-analysis of the deposited data

Results flagged for a closer look

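In the fit without the block, the difference between agonists was past the threshold for *SERPINB2* alone, whereas 2 members each passed with the cow as a block for the PPARδ and the PPARγ against the PPARα agonist. Its log2 difference was -9.09 for the PPARδ against the PPARα agonist (adjusted p = 0.0327, edgeR) and -9.71 for the PPARγ against the PPARα agonist (adjusted p = 0.0149, edgeR). In both comparisons it rests on the PPARα library of cow 576, with 1232 counts.

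In the 4 libraries of cow 574, which no comparison uses, 11 serpin rows had more than 3 counts in their highest library and a higher value there than in any of the 12 others. As CPM of gene counts, without TMM, these were *SERPINB8* at 98.4, *SERPINE2* at 62.2, *SERPINB12* at 47.6, *SERPINB5* at 45.2, *SERPINB10* at 31.1, *SERPINI2* at 30.3, *SERPINA10* at 22.7, *SERPINA7* at 16.7, *SERPINB9* at 8.66, *SERPINE3* at 6.48 and *SERPINB11* at 4.76. The highest values came from control slices for *SERPINB12*, *SERPINI2*, *SERPINA10* and *SERPINB9*, and from slices with an agonist for the others. These libraries held 772012 to 970406 gene counts, and 79.6 to 84.3% of their reads had no feature.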

How the results depend on the processing

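Counts of called serpins, given for the PPARα, PPARδ and PPARγ agonist in that order, were 3, 0 and 0 without the block and 7, 5 and 5 with the cow as a block. Without the block they were 0, 0 and 0 with filterByExpr, where 0, 3 and 9 of all rows were called. Without a filter they were 6, 4 and 3, among 408, 340 and 332 rows called. The newer quasi-likelihood method gave 1, 0 and 0, among 21, 24 and 55 rows. With cow 574 added they were 0, 0 and 0, where 0 rows of any kind were called. With cow 574 and the block they were 2, 2 and 2, among 143, 80 and 176 rows. Leaving out a whole cow gave 1, 0 and 0 (cow 581), 10, 1 and 5 (cow 576) and 6, 6 and 4 (cow 567), where all rows called numbered 35, 46 and 35, then 3030, 972 and 1059, then 87, 197 and 152, against 106, 61 and 125 with all libraries, and leaving out single libraries gave 0 to 9, 0 to 4 and 0 to 4. With the block they were 0, 0 and 1 with filterByExpr. They were 1, 2 and 1 without cow 581, 10, 1 and 5 without cow 576, and 4, 7 and 8 without cow 567. Over single libraries they were 1 to 11, 0 to 7 and 0 to 10. Without cow 576 all rows called with the block were 3032, 1001 and 1122, against 532, 402 and 567. All rows called are not given for filterByExpr with the block, for cows 581 and 567 or for every single library. No result about serpins is read from those counts. The settings with the block other than the block itself, and those between agonists or cows, were chosen after seeing the data. Between agonists the block gave 2 serpins for PPARδ against PPARα and for PPARγ against PPARα. Single libraries gave 1 to 2 for each of these and 0 to 1 for PPARγ against PPARδ. Differences between cows gave 0 with filterByExpr and 2 to 13 over single libraries. All rows called are not given for these filterByExpr and single-library fits, so no result about serpins is read from them. Of 874 alternative values of 40 member results, 863 kept their direction and 11 did not. Among the 863, 120 lost their call and 96 gained one. The 40 results were picked by an unadjusted p under 0.05 or a call with the block (edgeR) in these data. The settings also reuse the same libraries, so a kept direction is no support for a difference. Leaving out the 3 marked libraries leaves cow 576 alone with the PPARα agonist. The log2 fold changes with that agonist were then -0.69 for *SERPINA3-1*, -1.41 for *SERPINA3-3*, -0.76 for *SERPINA11* and -1.61 for *SERPINA3-7*. They were -0.70 for *SERPINB6*, -0.67 for *SERPINC1*, -0.49 for *SERPINF2*, -0.50 for *SERPINF1* and 1.38 for *SERPINA5*. With the block they were -0.67 for *SERPINA3-1*, -0.999 for *SERPINA3-3* and -0.41 for *SERPINC1*. They were 0.10 for *SERPINF2*, 1.34 for *SERPINA3-7* and 1.45 for *SERPINA5*. The cause of the other changes was not tested. DESeq2 size factors moved the median of all rows with the PPARα agonist from 0.12 to 0 and kept 3, 0 and 0 calls. For rows with few counts, such as *SERPINA6* and *SERPINB11*, no difference was detectable at this depth.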
